A study of Homo sapiens with 9 samples.

Results

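Of the 15750 EGR1 binding sites that exceeded proliferating cells on chromosomes 1 to 22 after induction of BRAF V600E, 605 stood alone, with no other listed summit within 300 kb (3.84%, 95% Wilson interval 3.55 to 4.15). These isolated peaks were chosen from the induced list by the distance between summits, the base of highest signal in each peak, so their spacing and every value of that list are descriptions with no test. The induced list held 16285 peaks over all chromosomes and contigs, and the list from cells also given clobetasol held 12340. Binding was measured by ChIP-seq (sequencing of DNA bound to immunoprecipitated chromatin) in BJ-hTert-B-RAF-V600E, a line of human fibroblasts immortalised with telomerase that makes the BRAF V600E oncoprotein when given doxycycline. All libraries used 1 anti-EGR1 antibody, and 9 libraries fell into 3 groups of 3. Proliferating cells received ethanol and DMSO, induced cells received doxycycline at 1000 ng/mL and DMSO, and the third group received the same doxycycline with clobetasol at 2 nM, a potent glucocorticoid, each for 24 h. Titles name DMSO for the clobetasol group too, and all groups carry the inducible transgene. No label states if the 3 libraries within a group are separate cultures.

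EGR1 is a zinc finger transcription factor of the immediate early class. RAF, MEK and ERK signalling drives its transcription through serum response elements, and the protein binds short GC-rich motifs, often in promoters, where it recruits coactivators or the NAB corepressors. Promoters and GC-rich regions lie close together in gene-dense parts of the genome and far apart in gene-poor parts, where distal elements make up more of the regulatory sequence. Glucocorticoids act through the glucocorticoid receptor, which raises the expression of inhibitors of MAP kinase signalling and can also oppose transcription factors such as AP-1.

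Each list came from 1 pool of 3 treated libraries set against the pool of 3 proliferating libraries, so no value below has a replicate spread, and no p-value compares the conditions. Proliferating replicates 2 and 3 share 1 sample name in their library names, and it is unclear if they were different samples. Folds and −log10 q values of single peaks are the authors' own. A fold is the treated pileup over the local control level, the signal expected from proliferating cells, at the summit. The number of fragments at a summit was recovered from the fold and the p-value, and it was a whole number within 0.05 at all 605 isolated peaks. The clobetasol pool was deeper than the induced pool by a factor of 1.21. The read depth of single libraries is unknown.

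The isolated peaks formed the far end of a wide range of spacings. Over all autosomal induced peaks the nearest other summit lay a median of 22.4 kb away (interquartile range 4.83 to 68.5). For the isolated peaks the median was 479 kb (359 to 686), 274 had no neighbour within 500 kb, and 66 had none within 1 Mb. Just inside the bound were the peaks at chr4:75858142-75858647, chr7:116894438-116894687 and chr7:81772184-81772488, whose nearest summits lay 300298, 300601 and 300770 bp away. Just outside it were the peaks at chr3:17484115-17484410, at 299551 bp, and a pair on chromosome 9 that were 299546 bp from each other, chr9:19998126-19998506 and chr9:20297492-20298053. Folds of these 6 peaks ranged from 3.59 to 5.40. The chromosome 9 pair had folds of 5.40 and 5.24, where 13.1% of all autosomal induced peaks exceeded 5.

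**Figure D1:**
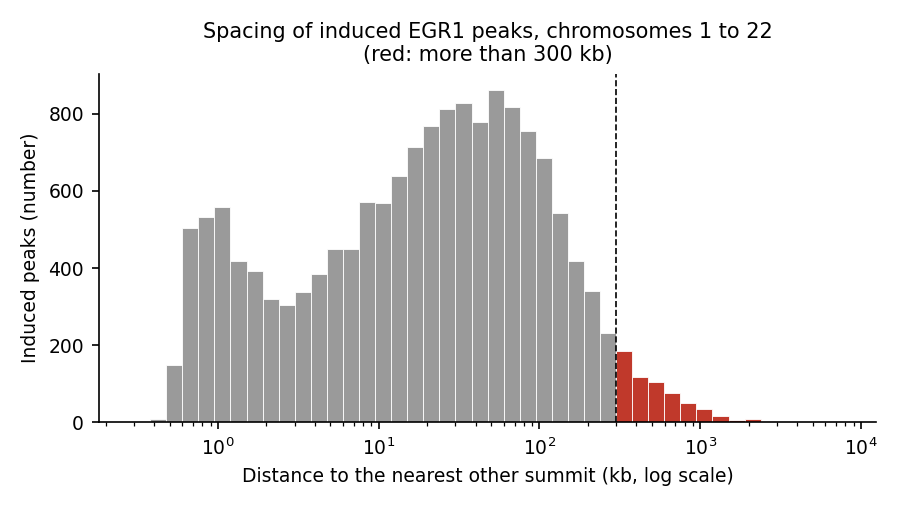
Number of autosomal induced peaks (vertical axis) by distance to the nearest other summit in kb (horizontal axis, log scale), with the 300 kb bound dashed. Most peaks lay within 100 kb of another, a second group lay near 1 kb, and the 605 isolated peaks, in red, form the right tail.

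The most remote of all was the peak at chr13:60971463-60971875, with 89 fragments, a fold of 3.03 and no other listed summit within 7406 kb. The peak at chr4:63965546-63965781 followed at 4300004 bp, with 107 fragments and a fold of 2.16. The next were chr7:61083519-61083862 at 3171 kb (342 fragments, fold 2.64), chr5:49411573-49412031 at 2873 kb (204 fragments, fold 1.94) and chr5:21341489-21342007 at 2864 kb (45 fragments, fold 2.89). These 5 had modest folds, all under the median of 3.65 over autosomal induced peaks. The control level was 4.42, 7.57, 19.9, 16.2 and 2.30 times the lowest of the list in the same order, so 3 of the 5 lay where proliferating cells already had strong signal. No annotation of gaps in the hg19 assembly was used here.

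Isolation in the list need not mean that nothing else was called nearby. Peak numbers in the authors' names run along each chromosome and skip values, and the highest number, 52393, is over the 16285 peaks listed. The skipped numbers are read here as peaks that were called but are missing from the list, a reading that no label or header states. Of the 601 isolated peaks with a listed peak on both sides, each had at least 1 skipped number between it and those neighbours, and the median over all 605 was 15. On at least 1 side, 26 had none. The remote peak on chromosome 13 had 53 skipped numbers before it and 94 after it. Gaps beside isolated peaks held 7.91 skipped numbers per Mb, against 12.8 over all autosomal gaps and 45.7 in gaps of up to 10 kb. Every gap beside an isolated peak is longer than 300 kb by choice, and the density fell with gap length. Autosomal gaps of 300 to 1000 kb held 11.6 per Mb and longer ones 6.50, and the value of 7.91 lay between them. Skipped numbers were thus present around the isolated peaks, at a lower density than between closely spaced peaks, a difference that goes with gap length.

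**Figure D2:**
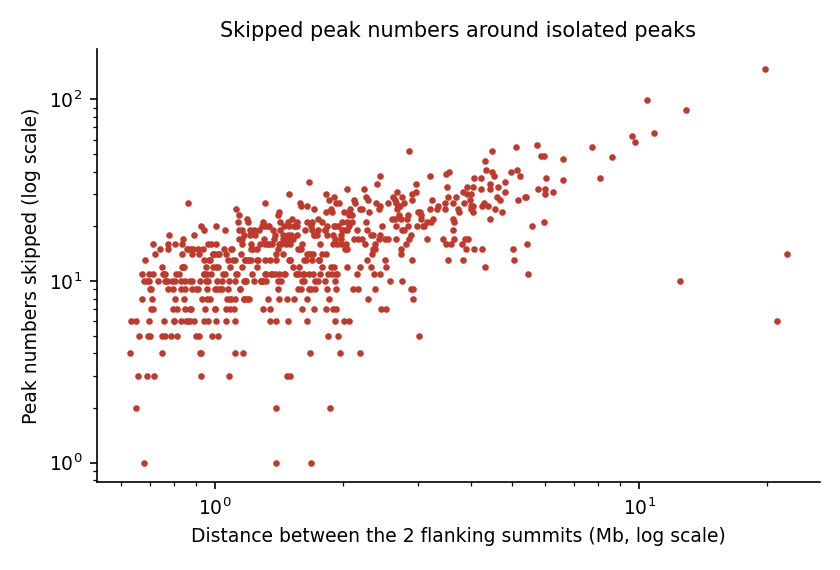
Peak numbers skipped by the authors' list between the 2 neighbours of an isolated peak (vertical axis, log scale) against the distance between those neighbours in Mb (horizontal axis, log scale), for the 601 isolated peaks with neighbours on both sides. No peak had 0, and the longest stretches mostly held more.

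Isolated peaks were spread over every autosome but in very unequal shares of the peaks listed there. On chromosome 4, 57 of 584 induced peaks were isolated (9.76%), followed by chromosome 13 with 22 of 305 (7.21%), chromosome 5 with 47 of 718 (6.55%), chromosome 6 with 46 of 714 (6.44%) and chromosome 18 with 17 of 264 (6.44%). At the other end, chromosome 19 had 4 of 1064 (0.376%), chromosome 17 had 9 of 967 (0.931%) and chromosome 22 had 5 of 423 (1.18%). Chromosomes 4, 13 and 18 are known as gene-poor and chromosomes 17, 19 and 22 as gene-rich. A low share follows from the rule itself where induced peaks are dense. Folds of the 4 on chromosome 19 ranged from 2.56 to 4.43, and 2 of them had an overlapping clobetasol peak.

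**Figure D3:**
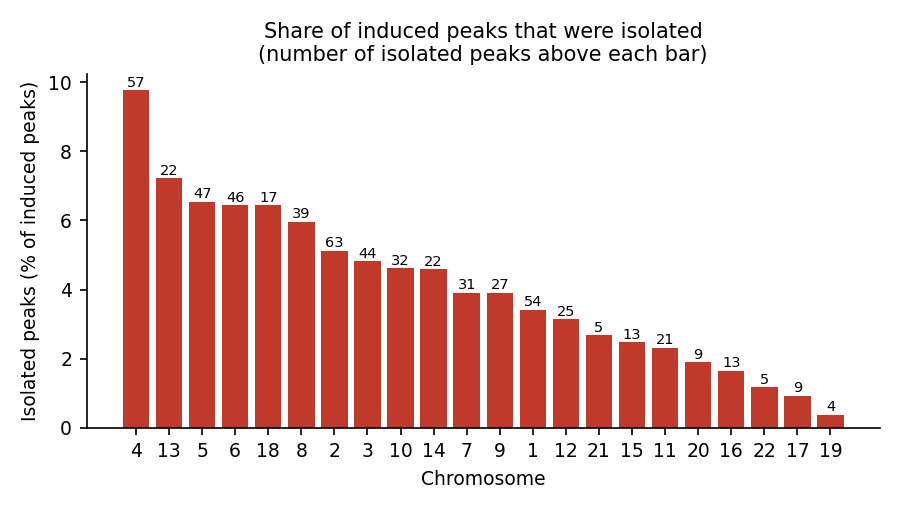
Isolated peaks as a percentage of the induced peaks of each autosome (vertical axis), ordered by that share, with the number of isolated peaks above each bar. Chromosome 4 had the highest share at 9.76% and chromosome 19 the lowest at 0.376%.

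Many isolated peaks followed one another along a chromosome. Single isolated peaks between closer-set neighbours numbered 242, and the other 363 sat in runs of 2 to 6 consecutive isolated peaks. Runs of 6 occurred on chromosomes 1, 3 and 8, over 5.00, 3.49 and 6.13 Mb. The run on chromosome 1 shows how unlike such neighbours can be. Its strongest peak, chr1:74663649-74664013, had 330 fragments in the induced pool and 261 in the clobetasol pool, which is 215 at the induced depth. Its next neighbour, chr1:75455108-75455335, had 139 and 185 fragments, or a ratio of 1.10 after scaling. The following peak, chr1:76190214-76190507, had 337 and 308 fragments, a ratio of 0.752. The one after it, chr1:76540121-76540654, had 79 and 54 fragments, a ratio of 0.563. Of these 4 consecutive peaks, 3 were called lower in the test given further on, and the second, with the ratio above 1, was not called. The first and last peak of the run had ratios of 0.776 and 0.704 and were not called. All 6 peaks of that run had a clobetasol peak, whereas 3 of the 6 in the run on chromosome 8 had none.

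In strength the isolated peaks were close to the other autosomal induced peaks. They had a median of 65 fragments (interquartile range 44 to 108) against 64 (44 to 105), and a median fold of 3.45 (2.94 to 4.14) against 3.65 (3.14 to 4.38). Fold exceeded 5 at 72 of 605 (11.9%) and at 13.1% of the others. They were narrower, with a median width of 360 bp against 426 bp, and 94 were at most 250 bp wide (15.5% against 6.17%). Control levels over 5 times the lowest, at which a site is called high-control here, occurred at 135 isolated peaks (22.3%) and at 17.4% of the others. At the lowest control level, where proliferating cells gave no local excess, were 17 isolated peaks (2.81% against 1.47%).

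The 10 strongest isolated peaks by −log10 q had folds from 4.06 to 7.65, above the median of 3.45. The first was chr10:131265130-131265637, with 348 fragments, a fold of 6.54 and a −log10 q of 154. It was followed by chr9:77642923-77643659 (339 fragments, fold 4.79), chr8:57123737-57124438 (286 fragments, fold 5.37) and chr12:48744501-48745099 (205 fragments, fold 7.65). The other 6 of the top 10 were chr8:79578094-79578412, chr1:95699431-95699948, chr6:130686575-130687794, chr8:15397632-15398327, chr1:74663649-74664013 and chr4:3956924-3957384, with folds from 4.06 to 6.36. Of these 10, 9 had control levels over 5 times the lowest, and the site at chr12:48744501-48745099 had 4.00 times. All 10 had a clobetasol peak.

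Ranked by fold, which favours sites with little signal in proliferating cells, the first was chr12:119613978-119614427, where 99 fragments gave a fold of 9.15. The next was chr11:127525868-127526208, with 66 fragments and a fold of 8.56 on a control level of 1.05 times the lowest, so proliferating cells had almost no local signal there. The following were chr3:150803197-150804386 (fold 8.14), chr2:152684481-152685176 (7.80), chr12:48744501-48745099 (7.65), chr11:117777871-117778288 (7.52), chr14:30709875-30710263 (7.32), chr8:128352365-128352748 (7.04), chr8:6565680-6566498 (6.95) and chr9:27572890-27573950 (6.92). Control levels of these 10 ranged from 1.05 to 4.00 times the lowest, and all 10 had a clobetasol peak. Only chr12:48744501-48745099 stood in both rankings. At the opposite end, 9 isolated peaks had folds under 2, down to 1.35 at chr20:26318062-26318500, and all 9 were high-control sites, at 9.61 to 47.9 times the lowest.

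The clobetasol list was then looked up at each isolated peak, which asked whether the gain was also listed in induced cells that received the glucocorticoid. An overlapping clobetasol peak was present at 379 of the 605 (62.6%, 95% Wilson interval 58.7 to 66.4), where 64.1% of all autosomal induced peaks had one. The share was thus near the background, and no test over regions was made, since regions of 1 pair of pools are not replicates. From the other side, the 379 overlapping peaks were 3.18% of the 11926 autosomal clobetasol peaks. The control, the pool of proliferating libraries, was the same for both.

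The share with a clobetasol peak was larger at stronger peaks. With −log10 q under 10 in the induced list, 72 of 223 isolated peaks had a clobetasol peak (32.3%, against 28.3% of all autosomal induced peaks in that class). From 10 to 20 it was 117 of 180 (65.0% against 63.2%), and at 20 and over 190 of 202 (94.1% against 94.6%). The 95% Wilson intervals below cover counting error over regions only, and regions are not replicates. By distance, the share was 62.2% with the nearest summit up to 500 kb away, 66.3% from 500 kb to 1 Mb, and 35 of 66 beyond 1 Mb (53.0%, 41.2 to 64.6). At high-control sites it was 115 of 135 (85.2%, 78.2 to 90.2), against a background of 91.3%. The isolated high-control peaks were weaker, with a median −log10 q of 27.1 against 39.6 at the other autosomal ones. At peaks of up to 250 bp it was 56 of 94 (59.6%, 49.5 to 68.9), against a background of 43.9%. The isolated peaks of that width had more fragments, a median of 77 against 47 at the other autosomal ones. At peaks over 1000 bp it was 40 of 49 (81.6%), against 80.2% of all autosomal induced peaks of that width. These differences were not tested.

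**Figure D4:**
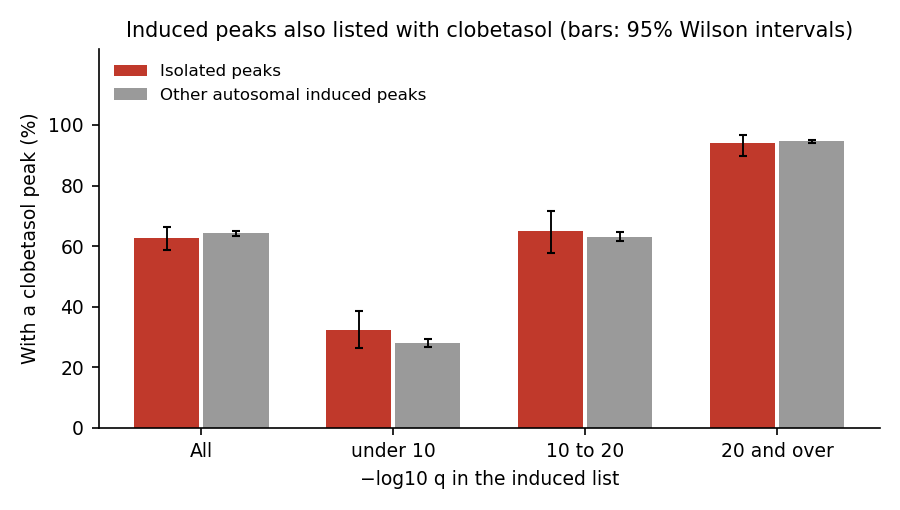
Percentage of induced peaks with an overlapping clobetasol peak (vertical axis), for isolated peaks in red and other autosomal induced peaks in grey, in all and by −log10 q in the induced list. Error bars are 95% Wilson intervals, which cover counting error only. The share went from 32.3% to 94.1% over the 3 classes of isolated peaks.

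No overlapping clobetasol peak was listed at 226 isolated peaks, among them 2 of the 72 with a fold over 5 (2.78%, against 6.95% of all autosomal induced peaks with such folds). A bound can be set on the signal there: from the control level and the weakest p-value listed with clobetasol, the largest pileup that would have stayed off the list was computed, assuming the same control level at the same base. At the depth of the induced pool this bound was a median of 0.786 of the induced pileup (interquartile range 0.708 to 0.870). It was under 0.8 at 122 of the 226, or 54.0%, against 56.3% of all autosomal induced peaks without a clobetasol peak. A bound under 1 follows from the deeper clobetasol pool and includes counting noise.

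The strongest of the 226 by −log10 q was chr4:171353046-171353350, with 188 induced fragments at 8.85 times the lowest control level and a bound of 0.530. Then came chr18:75795902-75796133 (350 fragments, bound 0.640), chr6:123795918-123796169 (275 fragments, 0.623), chr8:36346719-36346949 (305 fragments, 0.648) and chr2:23212002-23212279 (185 fragments, 0.650). All 5 were high-control sites with folds of only 2.23 to 3.24, and they were 231 to 305 bp wide. The chromosome 18 site stood apart in the numbering: the clobetasol list skipped 0 numbers between the listed peaks on its sides, so no unlisted call is recorded there either. The same held at 9 of the 226 (3.98%, against 20.8% of all autosomal induced peaks without a clobetasol peak), including chr3:139493795-139494138, a low-control site with 48 fragments, a fold of 6.00 and a bound of 0.497. The rule on spacing largely fixes that lower share, since it selects long gaps. The median of skipped clobetasol numbers was 7 around the 226, against 2 around all autosomal induced peaks without a clobetasol peak. Around the other 217 at least 1 number was skipped, so an unlisted clobetasol call may lie at the site or elsewhere in the gap.

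Where both lists had a peak, the fragment number with clobetasol was scaled to the induced depth, by the factor of 1.21, and set against the induced number. The ratio was a median of 0.846 at the 379 shared isolated peaks (95% interval from order statistics 0.818 to 0.870, interquartile range 0.735 to 0.971), and it was below 1 at 303 of them (79.9%). At the 9719 other shared autosomal peaks the median was 0.796 (0.792 to 0.799), with 88.2% below 1. Taken as the excess over the control level, the medians were 0.787 and 0.731. With the 226 unlisted peaks placed at their bounds, the medians over all members of each set were 0.823 and 0.790. Both intervals cover the spread over sites within 1 pair of pools only, and the difference between the sets was not tested.

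The width of the peaks moved with this ratio. For isolated peaks of up to 250 bp the median ratio was 1.00, between 250 and 500 bp it was 0.880, between 500 and 1000 bp 0.749, and over 1000 bp 0.739. The other autosomal peaks gave 1.02, 0.823, 0.759 and 0.734 in the same classes, and a smaller share of them was in the narrowest one. These medians cover shared peaks only, which were 59.6%, 57.4%, 70.6% and 81.6% of the isolated peaks of those classes. With unlisted peaks placed at their upper bounds, the medians were 0.910, 0.846, 0.749 and 0.733 for isolated peaks. For the others they were 0.882, 0.803, 0.760 and 0.738. The narrowest isolated peaks had a median fold of 2.73 on control levels with a median of 4.30 times the lowest, against 4.71 and 2.64 for those over 1000 bp, and 41 of the 94 were high-control sites. The ratio was also lower at stronger peaks, with medians of 0.990, 0.863 and 0.758 in the 3 classes of −log10 q, against 0.960, 0.823 and 0.747 at the other peaks. A weak peak had to stay high enough with clobetasol to enter both lists, so ratios of weak shared peaks are raised by the choice of sites. The −log10 q of these classes also rises with the induced fragments that the ratio divides by. Peaks whose induced number is high by counting noise thus enter the upper class with lowered ratios. The trend over these classes is therefore no measure of a response to clobetasol.

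An exact two-sided binomial test of the fragments of both pools, with Benjamini-Hochberg adjustment over the 10429 shared sites of all chromosomes, compares the pools and not the conditions. It called 76 of the 379 shared isolated peaks lower with clobetasol (20.1%, against 22.6% of all shared sites). It called 5 higher (1.32%, against 0.384%). Of the 76 lower calls, 74 were at peaks with −log10 q of at least 20 and 0 were at peaks of up to 250 bp, so the calls came from the well-counted, wider sites. No isolated peak with −log10 q under 10 was called lower. This pattern was not particular to isolated peaks. The strongest q class held 2174 of the 2244 lower calls among the other autosomal peaks. Their weakest q class held 1, and their narrowest width class 0.

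**Figure D5:**
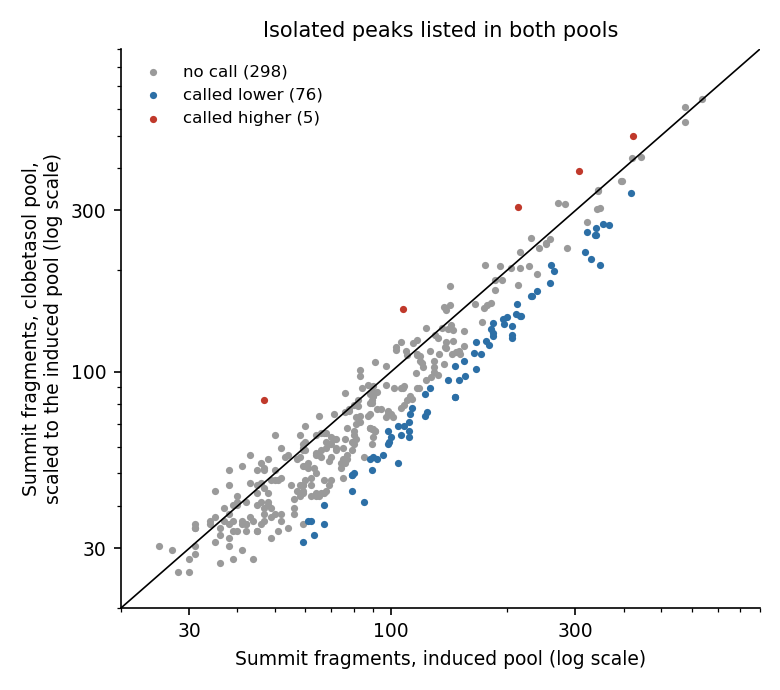
Fragments at the summit in the clobetasol pool, scaled to the induced depth (vertical axis, log scale), against fragments in the induced pool (horizontal axis, log scale), for the 379 isolated peaks listed in both. Each point is 1 peak, the line marks equality, blue points were called lower (76) and red points higher (5), and 303 points lie below the line.

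The clearest decrease was at the strongest isolated peak. At chr10:131265130-131265637, 348 induced fragments stood against 207 with clobetasol after scaling, for a ratio of 0.594 (exact 95% interval 0.503 to 0.700), with an adjusted p of 1.48e-07 in the exact binomial test. At chr1:74663649-74664013 the ratio was 0.651 (0.551 to 0.768), and at chr12:48744501-48745099 it was 0.614 (0.495 to 0.761), with 205 fragments against 126 after scaling. The ratio was 0.626 at chr3:75484025-75484628, the second peak of the run on chromosome 3. It was 0.575 at 2 sites with identical fragment numbers, 146 and 102, chr21:16436741-16437638 and chr12:82752225-82752829, the latter 1894 kb from any other summit. The other 4 of the 10 clearest were chr4:124319265-124319744 (ratio 0.514), chr2:168149307-168149922 (0.484), chr16:74401971-74402416 (0.711) and chr4:123747583-123748104 (0.615). The pair on chromosome 4 are each other's nearest neighbours, 572 kb apart.

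The lowest ratios among peaks with at least 50 induced fragments were 0.484 at chr2:168149307-168149922, where 85 fragments became 41.2 after scaling, and 0.514 at chr4:124319265-124319744. They were followed by 0.523 at chr4:24916047-24916371, 0.528 at chr4:175138705-175139312 and 0.530 at chr1:169862477-169863250, where 59 to 67 fragments became 31.3 to 35.4. All 5 passed the test, with upper interval limits between 0.695 and 0.810. None of the 5 was a high-control site. In all, 16 shared isolated peaks had a ratio under 0.6 (4.22%, against 5.66% of all shared autosomal peaks).

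The 5 peaks called higher were mostly of another kind. At chr2:134306729-134306956, 213 fragments became 373, or 307 after scaling, which makes the ratio 1.44 (1.21 to 1.71), with an adjusted p of 0.000716 in the exact binomial test. The remote site chr4:63965546-63965781 had 107 and 186 fragments, a ratio of 1.43 (1.12 to 1.83). Ratios at chr11:42237546-42237788 and chr1:208880559-208880907 were 1.29 and 1.18 on control levels of 29.9 and 39.4 times the lowest. These 4 were high-control sites with folds from 1.57 to 2.16 and widths of 228 to 349 bp. Summits of the lists lay 63 bp apart at the chromosome 11 site and 75 bp apart at the chromosome 4 site. At the chromosome 11 site the control level was 194 at the induced summit and 109 at the clobetasol summit, although the clobetasol pool was deeper. Its −log10 q was 10.1 and 142, and its ratio compares bases of unlike control level. The fifth was not a high-control site: chr5:125460393-125460696, at 1.87 times the lowest control level, went from 47 fragments to 100, or 82.3 after scaling. That makes the ratio 1.75 (1.23 to 2.53), with an adjusted p of 0.0129 in the exact binomial test. Among peaks with at least 50 induced fragments, chr3:147648255-147648524 (50 fragments and 79) and chr8:128352365-128352748 (ratio 1.26) completed the 5 highest ratios, and neither passed. The latter went from 142 fragments to 218 and was also 1 of the 10 isolated peaks of largest fold.

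The isolated peaks of largest fold did not move alike. The ratio was 0.624 at chr12:119613978-119614427 and 0.625 at chr3:150803197-150804386, both called lower, as were chr12:48744501-48745099 and chr9:27572890-27573950 (0.702). It was 0.848 (0.595 to 1.21) at chr11:127525868-127526208 and 1.17 (0.876 to 1.57) at chr14:30709875-30710263, whose intervals include 1. Of the 10 strongest by −log10 q, 9 were called lower, with ratios from 0.594 to 0.805, and chr8:57123737-57124438 just missed with 0.812 (exact binomial test, adjusted p = 0.0540). At −log10 q of 20 and over, 74 of 190 shared isolated peaks and 2174 of 5468 other shared autosomal peaks were called lower. No share was computed for other peaks as strong as these 10. Fold and −log10 q both rise with the induced fragments that the ratio divides by, so choosing the top peaks by either lowers their ratios. Of the 4 remotest peaks with a clobetasol peak, only chr4:63965546-63965781 was called, and the others had ratios of 0.684, 0.888 and 0.997. The ratio of 0.888 was at chr7:61083519-61083862, where the paired summits lay 148 bp apart, so it compares different bases. There −log10 q was 49.9 without clobetasol and 7.10 with it, although fragments numbered 342 and 369. That ratio therefore does not show an unchanged site. At the sites with 0.684 and 0.997, −log10 q went from 15.9 to 8.45 and from 14.1 to 17.5.

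Against the general decrease, in place of equality, almost no isolated peak was lower. With the median ratio of all shared sites, 0.799, set to 1, the exact binomial test called 1 isolated peak lower, chr10:131265130-131265637 (adjusted p = 0.0157), and 13 higher, while it called 0.508% of all shared sites lower and 2.28% higher. The 13 were 3.43% of the 379, and 11 of them were high-control sites. The 2 others were chr5:125460393-125460696 and chr8:128352365-128352748, at 1.87 and 2.98 times the lowest control level. They were thus the isolated peaks outside the high-control class whose pileup stood out from the decrease.

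Most isolated peaks were also alone in the clobetasol list. No other clobetasol summit lay within 300 kb of 450 of the 605 (74.4%, 95% Wilson interval 70.8 to 77.7), where 5.74% of all autosomal induced peaks had none, a difference that the rule on spacing largely fixes because most clobetasol peaks overlap induced ones. Of the 379 shared isolated peaks, 269 overlapped a clobetasol peak that was itself isolated in its list. That is 36.6% of the 735 isolated autosomal clobetasol peaks. Of those 735, 551 overlapped some induced peak, so many clobetasol peaks were alone where the induced list had closer neighbours. The clobetasol list was shorter, with 11926 autosomal peaks against 15750, and so held fewer possible neighbours. Isolated in their own list were 6.16% of its autosomal peaks, against 3.84% in the induced list.

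The other 155 isolated peaks (25.6%) had at least 1 clobetasol summit within 300 kb, in every case from a peak with no induced counterpart. The rule on spacing nearly fixes that, since an induced counterpart would place another induced summit at about the same distance. Such a summit lay within 300 kb of 42.6% of all autosomal induced peaks. Of the 1601 autosomal clobetasol peaks without an induced peak, 171 lay within 300 kb of an isolated peak, which is 0.493 per Mb of those windows, against 0.575 per Mb between the first and last induced summits of the autosomes. A summit of a clobetasol peak that did not overlap them lay within 10 kb of 10 isolated peaks (1.65%). The share over all autosomal induced peaks was 27.1%, a difference that the rule on spacing largely fixes. The nearest was 644 bp from the summit of chr2:200775817-200776153. The position of the shared summits hardly differed between pools: they lay a median of 10 bp apart. Of the 379, 366 were within 100 bp (96.6%, against 96.1% of all shared autosomal peaks). At 5 peaks (1.32%, against 1.71%) they were over 300 bp apart, up to 596 bp at chr6:130341226-130342154. These 5 need not describe the same site.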

How the data were processed

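Per the submitters' processing notes, the tools named are MACS2 2.1.1.20160309, BWA, cutadapt 1.15, SAMtools 1.3.1, bcl2fastq and FastQC 0.11.5, with hg19. Per the deposited peak names, replicates 1, 2 and 3 were pooled in each group. The deposited columns were a fold (a ratio at the summit), −log10 p, −log10 q and a score equal to the whole part of 10 times −log10 q. The lowest −log10 q was 5.00 in both lists. Peaks shared at least 1 bp to count as overlapping. Fragments and control levels were solved from fold and −log10 p with Python 3.11.15 and scipy 1.17.1. They were tested on simulated data. Control levels fell on steps of 0.552 and 0.670, whose ratio gave the depth ratio. As a check, control fragments from both lists were compared at 397 peaks whose summits coincide (median ratio 1.00). Positions count from 1 in hg19. No hg19 genome or annotation was used here, so genes, sequences and motifs at the peaks are not given, and the planned motif search was not run. Members, rules and tests were chosen with earlier results of these data known. Peaks named are the 10 highest by −log10 q and by fold, the 5 remotest, the 5 strongest without a clobetasol peak, those called (10 of lowest p), the 5 lowest and highest ratios at 50 fragments or more, and 3 on each side of the bound. Peaks named as members of a run, at folds under 2, on chromosome 3 without skipped numbers, by summit distance or nearest clobetasol summit were chosen after their values were seen. So were the width classes, the ratio bound and the skipped numbers. Intervals cover counting error only.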

Additional observations from a re-analysis of the deposited data

How the results depend on the processing

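No paired analysis was possible because the lists hold 1 pool per group, and for the same reason no replicate could be left out. Of 50 alternative values over 5 results, 28 stayed close to the value reported, 21 moved and 1 changed direction. For counts, close was wide: 450, 470 and 721 isolated peaks beside 605 were taken as close, as were 57 called lower beside 76. For shares it was narrower, and 56.2% beside 62.6% was taken as moved. The number of isolated peaks was 1104 at a bound of 200 kb and 274 at 500 kb, 382 with −log10 q of at least 10 and 202 with at least 20. The share with a clobetasol peak was 80.4% and 94.1% at those q bounds, 56.2% without high-control sites, 54.9% with an overlap of at least 50% of both peaks, and 46.6% with −log10 q of at least 10 in the clobetasol list. The median ratio was 0.7996 and 0.758 at the q bounds. With the median of all shared sites set to 1 it was 1.06 and so lay on the other side of equality, a scaling that by construction removes the general decrease. Peaks called lower numbered 137 at 200 kb, 32 at 500 kb, 41 without high-control sites and 1 with that median set to 1. The share alone in the clobetasol list was 80.8% at 200 kb and 68.2% at 500 kb. The bounds on distance, q and control level change how many peaks enter the counts. The fall from 76 to 1 called lower was over the same 379 peaks and came with that rescaling. For the other values the cause was not tested. When only induced peaks with −log10 q of at least 10 counted as neighbours, an alternative added after the data were seen, there were 721 isolated peaks, with 80.2% overlapped, a median ratio of 0.783, 154 called lower and 58.7% alone in the clobetasol list.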
